A study of Mus musculus with 6 samples.

Results

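Fc receptors and the CD47-SIRPA checkpoint set how readily a phagocyte engulfs what it touches. The genes described are Fcgr1, Fcgr3, Fcer1g, Fcgr2b, Sirpa, Cd300a, Cd300lf and Cd47, chosen by symbol. All 8 were among the 11881 genes of the deposited count table, and all 8 passed the filter on low counts, which left 10832 genes for testing. Microglia, the macrophages of the brain, had been gated as CD11b+CD45low from hippocampus of male mice aged postnatal day 17 to 21. There were 3 libraries labelled WT (wild type) and 3 labelled Mll5+/-, mice with 1 disrupted copy of Mll5, the gene now called Kmt2e. The title of each library carries its own number, taken here as that of 1 mouse. Which part of Mll5 is disrupted, how, and in which strain is not stated in the labels used here.

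Activating Fc receptors bind the constant part of antibodies on a coated target. They signal through a shared gamma chain whose tail carries an activation motif, which Src-family kinases phosphorylate and the kinase SYK then binds. Inhibitory receptors carry a related inhibition motif that recruits phosphatases such as SHP-1 and SHIP-1 and dampens the same pathway. CD47 on a healthy cell binds SIRPA on the phagocyte, the best known "don't eat me" signal, and microglia are held back by it from engulfing neurons and synapses.

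The libraries held between 21075570 and 29730400 counts, and Pearson's r between any 2 of them, over log2 levels of the tested genes, ran from 0.838 to 0.903. Kmt2e had 378 to 687 CPM (counts divided by library size, with sizes scaled by TMM) in libraries labelled WT and 298 to 648 CPM in libraries labelled Mll5+/-. Its log2 fold change of -0.08 came with an SE of 0.314 (edgeR unadjusted p = 0.799), so the whole-gene count did not separate the genotypes, which are named here as the labels give them. All 12 microglia markers had counts in every library. Tmem119 had 197 to 221 CPM in libraries labelled WT and 222 to 232 CPM in libraries labelled Mll5+/-. C1qa, a complement subunit gene, had 131 to 227 and 163 to 218 CPM, and P2ry12, a purinergic receptor gene, had 1366 to 5496 and 1086 to 1231 CPM (log2 fold change -1.70, edgeR unadjusted p = 0.0103 and adjusted p = 0.9995, DESeq2 adjusted p = 0.0343, limma-voom unadjusted p = 0.176 with a log2 fold change of -1.18).

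Sequence shared between close relatives limits how well reads of some of these genes can be told apart, so the longest shared coding runs are shown first. They were taken from GENCODE M21 transcripts on GRCm38, a build other than the mm39 of the count table. Capitals mark bases that lie in the later of 2 exons, and a run without capitals lies in 1 exon.
Fcgr2b and Fcgr3: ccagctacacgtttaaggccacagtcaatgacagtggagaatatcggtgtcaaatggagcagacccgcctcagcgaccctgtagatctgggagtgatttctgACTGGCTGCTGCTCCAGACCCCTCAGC
Cd300a and Cd300c2: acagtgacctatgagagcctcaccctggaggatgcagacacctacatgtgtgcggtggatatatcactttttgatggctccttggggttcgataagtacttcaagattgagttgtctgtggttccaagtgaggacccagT
Cd300lf and Cd300ld: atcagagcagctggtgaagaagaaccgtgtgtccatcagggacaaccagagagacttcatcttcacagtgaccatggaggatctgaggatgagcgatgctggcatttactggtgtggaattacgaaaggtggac

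The first run has 129 bases and joins exons 3 and 4 of both genes, at chr1:170966674-170968081 in Fcgr2b and chr1:171054167-171057792 in Fcgr3, both on the minus strand (intron included). Of all distinct 100-base windows of the coding transcripts of Fcgr3, 2.7% also occurred in Fcgr2b, and 1.14% of those of Fcgr2b occurred in Fcgr3. At 50 bases the shares were 10.2% of the windows of Fcgr3 and 4.48% of those of Fcgr2b, and at 150 bases 0 windows were shared. The second run has 140 bases (chr11:114893456-114894658 in Cd300a, plus strand, and chr11:114998335-115000767 in Cd300c2, minus strand), and 0.883% of the 100-base windows of Cd300a occurred in Cd300c2. The third has 134 bases (chr11:115126150-115126283 in Cd300lf and chr11:114987342-114987475 in Cd300ld, minus strand), and 1.76% of the 100-base windows of Cd300lf occurred in Cd300ld. For 50-base windows the share was 1.96% for Cd300a in Cd300c2 and 4.91% for Cd300lf in Cd300ld. Sirpa shared at most 32 bases with Sirpb1a, Sirpb1b or Sirpb1c, its activating relatives. Read length, and how reads of 2 genes were counted, are not stated in the labels used here.

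Levels of different genes were compared per kilobase of the longest coding transcript, as medians over the 6 libraries. The gamma chain Fcer1g came first with 237 CPM per kilobase (range 191 to 288), followed by the activating receptor Fcgr3 with 168 (138 to 217). The ligand Cd47 had 53.6 CPM per kilobase (49.6 to 75.9), the inhibitory Fcgr2b 41.7 (37.6 to 52.6) and Sirpa 25.9 (17.01 to 139). Fcgr1 had 25.2 CPM per kilobase (17.1 to 36.1), Cd300a 15.1 (11.8 to 17.8) and Cd300lf 0.758 (0 to 3.35). Neighbours in this order had overlapping ranges, except that the whole range of Fcgr3 lay above that of Cd47, and that of Cd300a above that of Cd300lf. With all exonic bases as the length, Fcgr1 (25.2) and Sirpa (24.3) changed places.

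Between genotypes, none of the 8 genes separated. Of the 8, 0 had an edgeR unadjusted p under 0.05 and 0 an adjusted p under 0.05, while among all 10832 tested genes the shares were 2.88% and 0%. Levels of 0 of the 8 genes were without overlap between genotypes, against 9.32% of all tested genes. With 8 genes and shares this low, a count of 0 is near the background and says little of the set. The fold changes split evenly, 4 above and 4 below 0, with a median of -0.01 on the log2 scale against 0.02 for all tested genes. More can be said gene by gene: for 6 of the 8 genes the 95% interval of the log2 fold change lay inside -1 to 1, which leaves out a 2-fold difference in either direction, and the exceptions were Sirpa and Cd300lf. DESeq2 and limma-voom also had 0 of the 8 at an unadjusted p under 0.05, against 4.87% of the 11608 genes that DESeq2 tested and 4.24% of the genes in limma-voom. At an adjusted p under 0.05, DESeq2 called 0.25% of its genes and 0 of the 8. In bulk RNA, fewer cells of a type and less RNA per cell cannot be told apart.

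**Figure D1:**
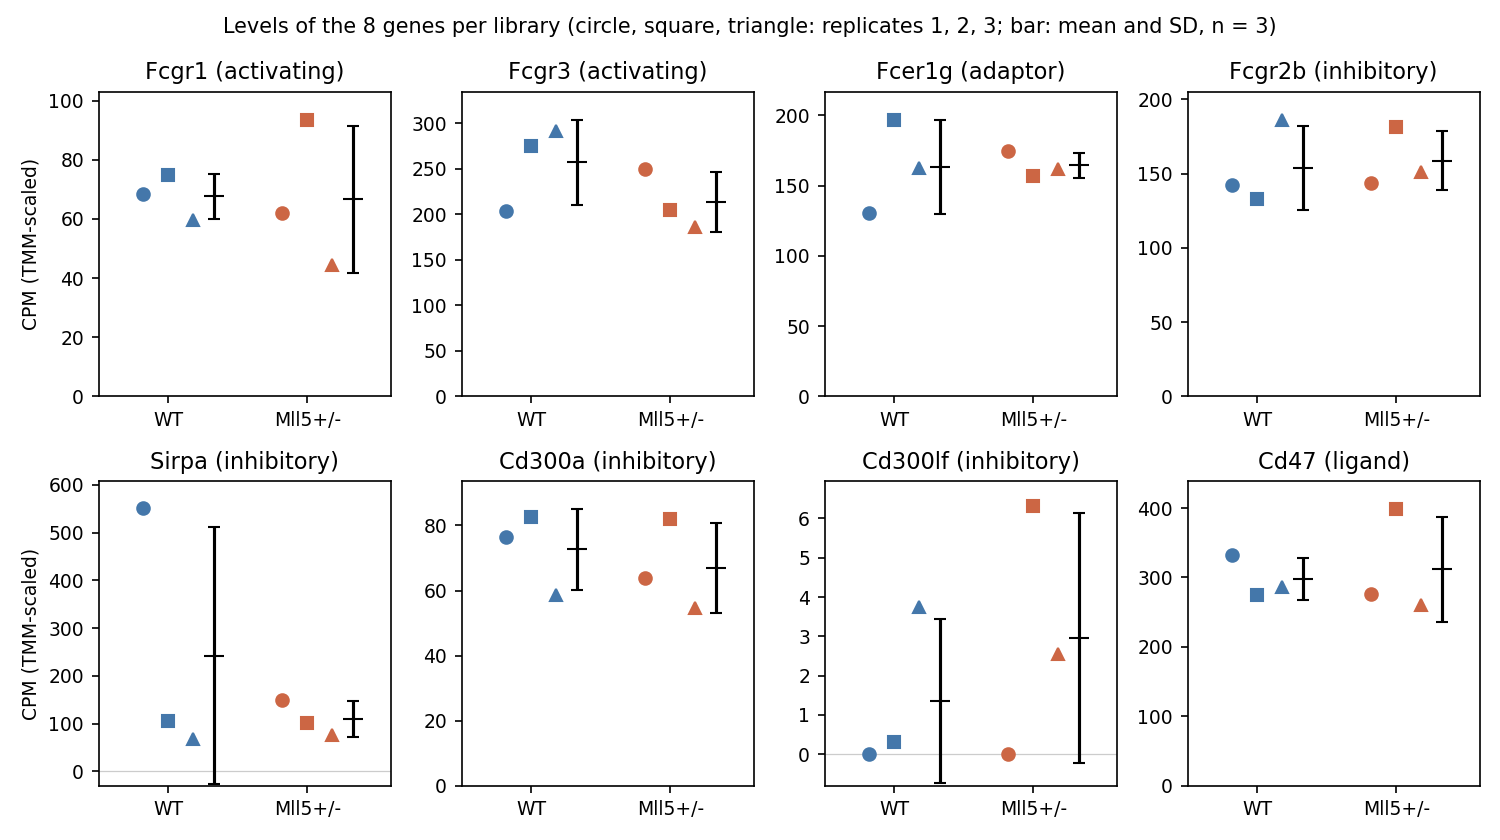
TMM-scaled CPM (vertical axis, linear) of each of the 8 genes in the 3 libraries labelled WT (blue) and the 3 labelled Mll5+/- (orange), with the mean and SD of each group (n = 3). The genotypes overlap in every panel, Sirpa is at 552 CPM in WT replicate 1 against at most 150.1 CPM elsewhere, and Cd300lf is at 0 in 1 library of each genotype.

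Among the activating genes, Fcgr1 encodes the high-affinity IgG receptor, a common identity marker of macrophages and microglia (chromosome 3, 96190225 to 96201285, mm39). It had 68.5, 74.8 and 59.5 CPM in WT replicates 1, 2 and 3 and 62.1, 93.5 and 44.3 CPM in Mll5+/- replicates 1, 2 and 3. The highest and the lowest library were both labelled Mll5+/-, and the WT values lay between them. The log2 fold change was -0.02 (SE 0.334, 95% interval -0.78 to 0.74, edgeR unadjusted p = 0.952).

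Fcgr3 encodes the low-affinity activating IgG receptor (chromosome 1, 170878744 to 170892504). It had 203, 275 and 292 CPM in WT replicates 1, 2 and 3 and 249, 204 and 186 CPM in Mll5+/- replicates 1, 2 and 3. Both highest values were WT and the lowest was Mll5+/-, but WT replicate 1 lay within the Mll5+/- range. Its log2 fold change of -0.27 (SE 0.221, 95% interval -0.77 to 0.23, edgeR unadjusted p = 0.256) was negative without any single library as well, from -0.42 to -0.17.

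Fcer1g encodes the gamma chain that both activating receptors need for surface expression and signalling (chromosome 1, 171057141 to 171061934). It had 130.3, 197 and 162 CPM in libraries labelled WT and 174, 157 and 162 CPM in libraries labelled Mll5+/-. The 3 Mll5+/- libraries fell inside the WT range, with group means of 164 ± 8.96 and 163 ± 33.3 CPM (SD, n = 3 each). The log2 fold change was 0.01 (SE 0.225, 95% interval -0.50 to 0.52, edgeR unadjusted p = 0.963).

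Of the inhibitory receptors, Fcgr2b is the inhibitory member of the Fc gamma receptor family and lies near Fcgr3 (chromosome 1, 170786186 to 170804116). It had 142, 133 and 186 CPM in libraries labelled WT and 144, 181 and 151 CPM in libraries labelled Mll5+/-. Both ends of the range were WT libraries. The log2 fold change was 0.05 (SE 0.229, 95% interval -0.47 to 0.56, edgeR unadjusted p = 0.847).

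Sirpa, the receptor for CD47 (chromosome 2, 129434759 to 129474148), was the member in which 1 library stood apart. It had 552, 106 and 67.7 CPM in WT replicates 1, 2 and 3 and 150.1, 100.1 and 76.8 CPM in Mll5+/- replicates 1, 2 and 3. WT replicate 1 was 3.68 times the next-highest library, and the other 5 libraries overlapped. The log2 fold change was -1.15 (SE 0.827, 95% interval -3.18 to 0.87, edgeR unadjusted p = 0.214), and without WT replicate 1 it turned to 0.32 (edgeR unadjusted p = 0.430), so its direction rested on that library. Of the 6833 tested genes with a mean of at least 10 CPM, 47 (0.688%) had a library more than 3 times above the next-highest. In 12 of them, Sirpa included, that library was WT replicate 1. The other 5 libraries had 0 (WT replicate 2) to 17 (Mll5+/- replicate 3) such genes each.

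Cd300a encodes a phosphatidylserine-binding inhibitory receptor (chromosome 11, 114780867 to 114795480). It had 76.5, 82.7 and 58.7 CPM in libraries labelled WT and 64.0, 81.9 and 54.6 CPM in libraries labelled Mll5+/-. The genotypes overlapped across nearly the whole range. The log2 fold change was -0.12 (SE 0.291, 95% interval -0.78 to 0.54, edgeR unadjusted p = 0.689).

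Cd300lf, a relative on the same chromosome (115007040 to 115024818) with inhibition motifs of its own, was low and uneven between libraries. It had 0, 8 and 108 counts in WT replicates 1, 2 and 3 and 0, 180 and 54 counts in Mll5+/- replicates 1, 2 and 3. At these depths 3 counts, the limit that a count of 0 allows for counting error, are 0.125 CPM in WT replicate 1 and 0.118 CPM in Mll5+/- replicate 1. Each genotype held 1 library at 0 and 1 above 3 CPM (3.74 and 6.32 CPM), and the 95% interval of the log2 fold change ran from -4.10 to 6.35 (edgeR unadjusted p = 0.637). Within 1 genotype the counts ran from 0 to 180, and the SD of log2(CPM + 1) within genotypes was 1.33.

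Cd47, the ligand of SIRPA (chromosome 16, 49620896 to 49735373), is made by most cell types, so it can come from microglia themselves or from other cells in the gate. It had 332, 275 and 286 CPM in libraries labelled WT and 276, 399 and 261 CPM in libraries labelled Mll5+/-. The highest and the lowest were both Mll5+/-. The log2 fold change was 0.07 (SE 0.217, 95% interval -0.43 to 0.56, edgeR unadjusted p = 0.764).

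**Figure D2:**
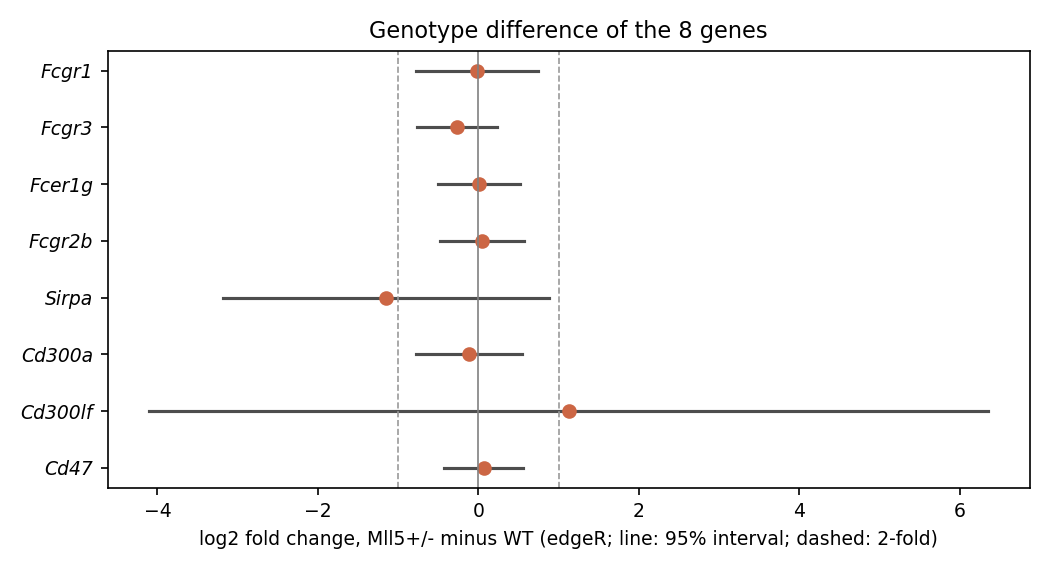
log2 fold change of each gene, labelled Mll5+/- minus labelled WT (horizontal axis), with its 95% interval from edgeR; dashed lines mark a 2-fold difference. For 6 genes the interval lies between the dashed lines, while those of Sirpa (-3.18 to 0.87) and Cd300lf (-4.10 to 6.35) pass one or both.

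The spread between libraries of 1 genotype was below the median of all tested genes for 6 of these genes. Within genotypes, the SD of log2(CPM + 1) was 0.216 for Fcer1g, 0.218 for Fcgr2b, 0.249 for Fcgr3, 0.255 for Cd47, 0.273 for Cd300a and 0.394 for Fcgr1, against a median of 0.626 over all tested genes. Of all tested genes, between 73.6% (for Fcgr1) and 92.5% (for Fcer1g) had a larger SD than these 6. Sirpa (1.17) and Cd300lf (1.33) lay on the other side, with 16% and 10.3% of genes above them. The genes compared were not matched for level. Of the tested genes, 6833 had a mean of at least 10 CPM, as these 6 did. A low SD was therefore not shown to be particular to them.

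The balance of activating to inhibitory genes was taken per library as the mean log2(CPM + 1) of Fcgr1, Fcgr3 and Fcer1g minus that of Fcgr2b, Sirpa, Cd300a and Cd300lf, with CPM from raw counts. It was 1.31, 2.18 and 1.70 in WT replicates 1, 2 and 3 and 2.03, 1.33 and 1.51 in Mll5+/- replicates 1, 2 and 3. The means were 1.73 ± 0.439 and 1.62 ± 0.361 (SD, n = 3 each, WT first), a difference of -0.11 that is smaller than the spread within either genotype. As a score over chosen genes it was given no test.

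The sign of that small difference depended on how the genes were combined and on which were included. With summed CPM, the activating genes had 0.522, 1.70 and 1.62 times the CPM of the inhibitory genes in libraries labelled WT, and 1.36, 1.23 and 1.37 times in libraries labelled Mll5+/-. The low value belonged to WT replicate 1, in which Sirpa made up 71.6% of the inhibitory counts, against 21.4% to 41.9% in the other 5 libraries. The difference of the mean log2 ratios was then 0.23. Without WT replicate 1, the equally weighted balance differed by -0.32. Without Cd300a and the low and uneven Cd300lf, over all libraries, that balance differed by 0.17.

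The closest pair of opposite function, Fcgr3 and Fcgr2b, gave a ratio of CPM of 1.43, 2.07 and 1.57 in libraries labelled WT. In those labelled Mll5+/- it was 1.73, 1.13 and 1.23. These ratios are not per length and are read between libraries alone: 2 of the Mll5+/- libraries had the lowest ratios, and Mll5+/- replicate 1 lay among the WT values. For the checkpoint, the ratio of Cd47 to Sirpa was 0.601, 2.60 and 4.22 in libraries labelled WT and 1.84, 3.98 and 3.39 in libraries labelled Mll5+/-. WT replicate 1 had the lowest ratio, and the other 5 libraries overlapped.

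**Figure D3:**
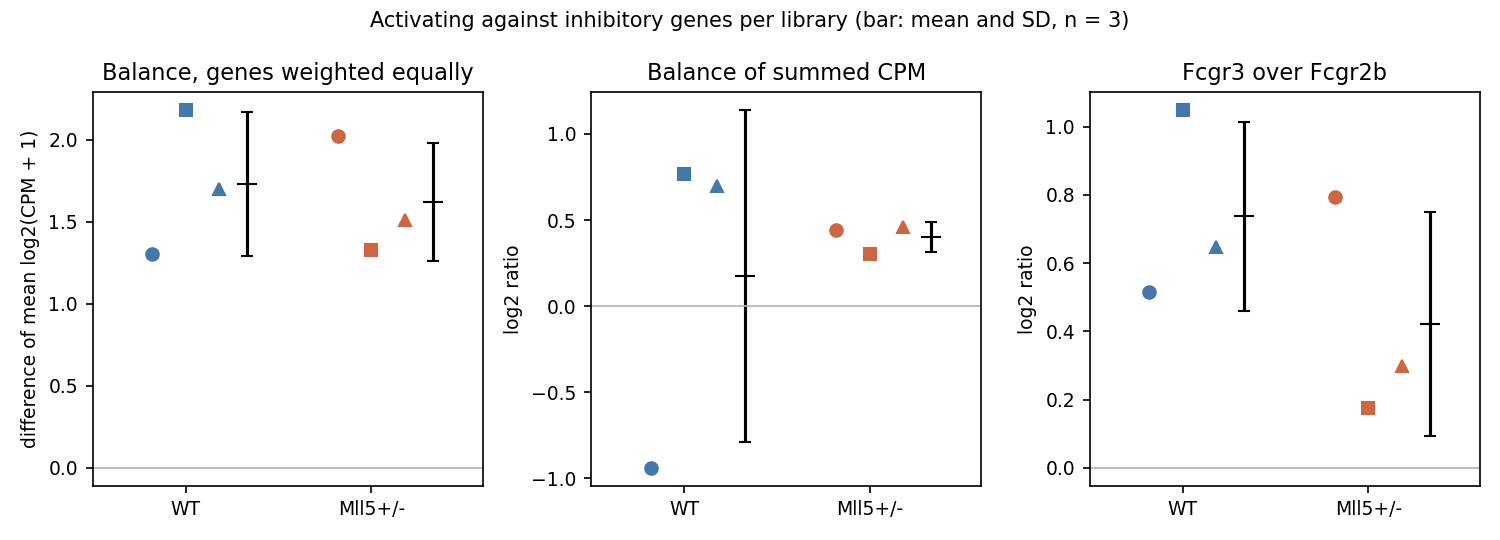
Activating against inhibitory genes in each library, as the difference of mean log2(CPM + 1), as the log2 ratio of summed CPM, and as the log2 ratio of Fcgr3 to Fcgr2b (bars: mean and SD, n = 3). The genotypes overlap in all 3 panels, and WT replicate 1 is far below the other libraries in the panel of summed CPM (-0.94).

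The rest of the pathway was read from 6 lists of genes that take part in it. Levels did not overlap between genotypes in 9.32% of all tested genes. The lists, in the order below, had 2 of 24, 1 of 13 and 0 of 6 such genes among those tested. They then had 2 of 16, 0 of 11 and 4 of 28. A lack of overlap in a gene named below is to be read beside these counts. Of all tested genes, 1.36% were higher and 1.52% lower in the libraries labelled Mll5+/- at an edgeR unadjusted p under 0.05. Kinases and adaptors of activating Fc receptor signalling held 0 of 24 tested genes at that limit, with a median log2 fold change of 0.13. The smallest p there was that of Syk, the kinase that binds the phosphorylated gamma chain. It had 158, 123 and 89.7 CPM in libraries labelled WT and 100.1, 92.0 and 99.4 CPM in libraries labelled Mll5+/- (log2 fold change -0.35, SE 0.266, edgeR unadjusted p = 0.224).

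Effectors of the inhibition motif held 1 of 13 at that limit, with a list median of -0.11. Csk, the kinase that shuts off Src-family kinases, had 39.6, 53.3 and 46.3 CPM in libraries labelled WT and 72.9, 62.4 and 97.3 CPM in libraries labelled Mll5+/-. All 3 Mll5+/- values lay above the WT values (log2 fold change 0.74, SE 0.302, edgeR unadjusted p = 0.0370). Its adjusted p did not pass. With 1 library left out, the edgeR unadjusted p of Csk was under 0.05 in 1 of 6 fits, the one without Mll5+/- replicate 2 (0.0307). In the other 5 fits its edgeR unadjusted p was 0.0533 to 0.130 (without WT replicate 2 and Mll5+/- replicate 3), and in limma-voom it was 0.0591. The phosphatases these receptors recruit overlapped between genotypes: SHP-1 (Ptpn6) had 133 to 168 CPM in WT and 147 to 234 CPM in Mll5+/- libraries, and SHIP-1 (Inpp5d) had 129 to 216 and 108 to 172 CPM.

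Other receptors of the Fc, CD300 and SIRP families held 0 of 6 tested genes under the limit (median -0.34). Fcrls, an Fc receptor-like gene typical of microglia, was the most abundant with 1600, 1465 and 1274 CPM in libraries labelled WT and 1397, 1149 and 940.1 CPM in libraries labelled Mll5+/- (log2 fold change -0.32, SE 0.182, edgeR unadjusted p = 0.118). Fcgr4, the remaining activating IgG receptor, was low, with 6.66 to 13.2 and 6.78 to 23.9 CPM. Cd300c2, which shares the run shown with Cd300a, had 50.04 to 75.1 CPM in WT and 67.7 to 87.6 CPM in Mll5+/- libraries. Cd300ld, which shares the run shown with Cd300lf, had no count in 4 of the 6 libraries.

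Among inhibitory receptors of other families, 1 of 16 was under the limit (list median 0.06). Pirb, a receptor for MHC class I molecules with inhibition motifs, had 4.09, 7.85 and 3.29 CPM in libraries labelled WT. It had 22.2, 23.5 and 17.1 CPM in libraries labelled Mll5+/-. The lowest Mll5+/- value was above the highest WT value (log2 fold change 2.04, SE 0.583, 95% interval 0.72 to 3.37, edgeR unadjusted p = 0.00690), but the adjusted p did not pass in edgeR (0.9995) or DESeq2 (0.148). With 1 library left out, the edgeR unadjusted p of Pirb ran from 0.00615 (without WT replicate 2) to 0.0270 (without Mll5+/- replicate 2). Its reads are also uncertain: the longest run it shares with its activating relative Pira2 has 477 bases, and 10.5% of its 150-base windows occur there. Lilrb4a was also without overlap, at 2.01 to 3.62 against 3.71 to 5.15 CPM, with an edgeR unadjusted p of 0.669, and is named after its values were seen.

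In the list of other "don't eat me" signals and partners of CD47 or SIRPA, 0 of 11 tested genes were under the limit (median 0.03). Ptk2b, a kinase, had the smallest p there (0.282, edgeR unadjusted), with 4.55, 1.77 and 1.11 CPM in libraries labelled WT and 0.986, 11.2 and 7.13 CPM in libraries labelled Mll5+/-. The actin machinery of the phagocytic cup held 2 of 28, 1 in each direction (median -0.01). Cdc42, a small GTPase, had 401, 410.3 and 444 CPM in libraries labelled WT and 316, 321 and 247 CPM in libraries labelled Mll5+/-, without overlap (log2 fold change -0.51, SE 0.181, edgeR unadjusted p = 0.0212). Rac1, another, had 947, 1105 and 822 CPM and 1538, 2098 and 982 CPM, with Mll5+/- replicate 3 inside the WT range (log2 fold change 0.68, SE 0.263, edgeR unadjusted p = 0.0291). Neither passed the adjustment. Rac1 lost its edgeR unadjusted p under 0.05 without WT replicate 1 (0.0711), WT replicate 3 (0.0929), Mll5+/- replicate 1 (0.0647) or Mll5+/- replicate 2 (0.143, with a log2 fold change of 0.38). Cdc42 lost it without WT replicate 3 (0.0529) or Mll5+/- replicate 3 (0.0559), so neither gene had it without WT replicate 3.

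**Figure D4:**
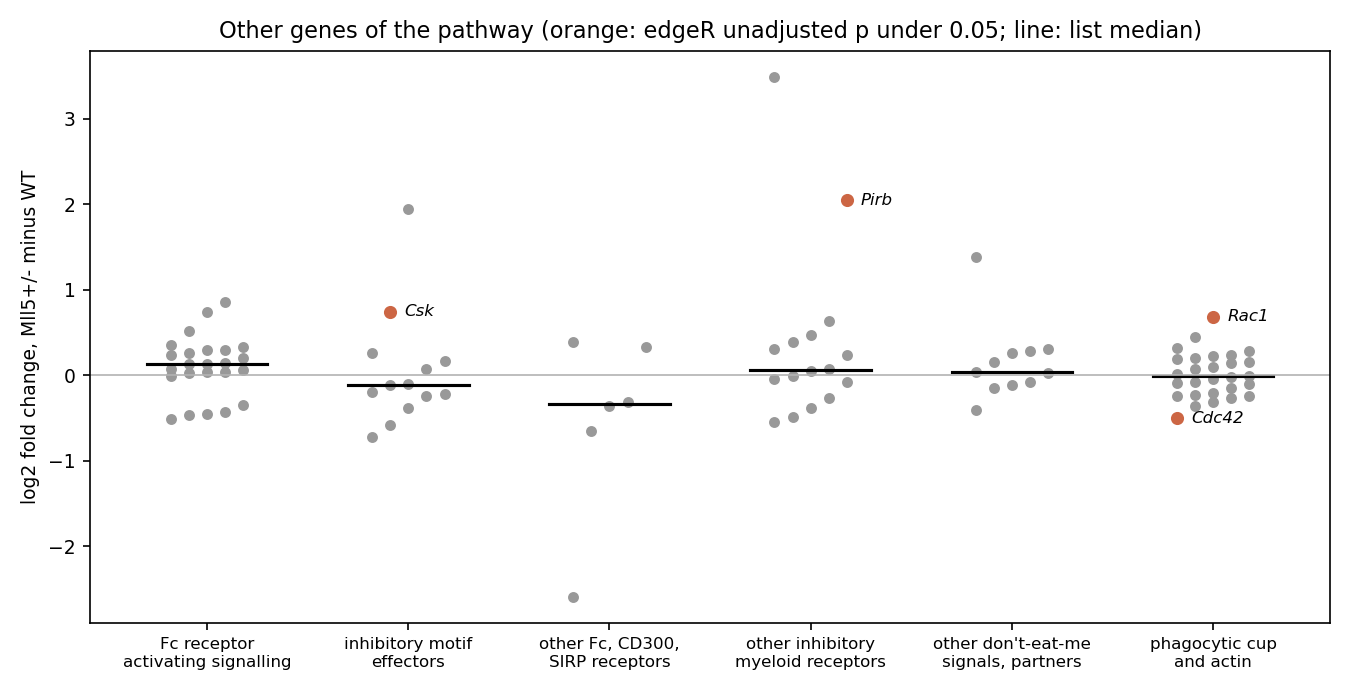
log2 fold change, labelled Mll5+/- minus labelled WT (vertical axis), of each tested gene in the 6 pathway lists; the line is the list median, and orange points have an edgeR unadjusted p under 0.05. The 4 orange genes are Csk, Pirb and Rac1 above 0 and Cdc42 below 0; the point at 3.49 is Slamf8, with 0 to 0.919 CPM in libraries labelled WT, and the point at -2.59 is Cd300c, with at most 1.59 CPM in any library.

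Markers of other cells that carry Fc receptors were read beside these values. Of the 8 border-associated macrophage markers, 6 were listed among the 11881 genes of the count table. They summed to 265 to 328 CPM in libraries labelled WT and to 368 to 692 CPM in libraries labelled Mll5+/-, without overlap. The sum of 692 CPM was that of Mll5+/- replicate 3, while Mll5+/- replicates 1 and 2 had 417 and 368 CPM. The most abundant of these markers was Stab1 (mean 264 CPM), and 3 of the 6 had counts in every library. The 12 microglia markers summed to 10387 to 14700 and 8073 to 9307 CPM, also without overlap, and P2ry12 was the most abundant of them (mean 2427 CPM). Oligodendrocyte markers (6 of 7 listed) summed to 140.2 to 185 CPM and 98.1 to 135 CPM, without overlap as well. No background share was taken for such sums, while 9.32% of single tested genes were without overlap. The part of these 3 marker sets in the values of the Fc receptor and checkpoint genes, or of Csk, Pirb and Cdc42, was not tested.

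Monocyte and neutrophil markers, of which 5 of 10 were listed, overlapped between genotypes (196 to 257 and 222 to 278 CPM). Most of these sums came from Csf3r alone (mean 207 CPM), while S100a8, Ly6c2, Ly6g, Retnlg and Mmp9 were not listed in the count table. Of the B and plasma cell markers 1 of 7 was listed, Cd79b, at 1.56 to 16.4 CPM over the 6 libraries. Neuron markers (3 of 8 listed) summed to 9.77 to 21.6 and 9.58 to 35.8 CPM. Astrocyte markers (7 of 8 listed) summed to 397 to 567 and 268 to 553 CPM, endothelial markers (4 of 6) to 13.8 to 30.4 and 16.9 to 23.3 CPM, and handling genes (8 of 8) to 71.3 to 128 and 101 to 131 CPM. Of the marker lists for NK and T cells, for mast cells and basophils, and for erythrocytes and platelets, 0 genes were among the 11881 genes analysed here.

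Genes with the most similar course over the 6 libraries were looked up for Fcer1g and Sirpa among 6832 genes with a mean of at least 10 CPM. Likeness was the mean absolute distance between log2(CPM + 1) values, each centred on its own mean. Closest to Fcer1g were Secisbp2l (0.0509) and Ankmy2 (0.0589), against a mean absolute deviation of Fcer1g itself of 0.125. Closest to Sirpa were Ankle2 (0.318) and Nub1 (0.363), against 0.769 for Sirpa itself. Ankle2 had 369 CPM in WT replicate 1 and 68.6 to 112 CPM in the other 5 libraries, so it shared the high library of Sirpa. These distances are a description of 6 libraries.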

How the data were processed

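RNA-seq was made from 6 libraries of sorted hippocampal microglia; per the labels' protocols, cDNA was amplified by SMART-seq and tagged with a transposase kit. The authors deposited whole-number counts per gene symbol with mm39 gene coordinates. STAR, StringTie, FastQC and DESeq2 are named per the submitters' processing notes (not given in the sources used here: their versions and roles, how reads were counted, and strand), so overlapping or antisense genes cannot be told apart. The count table's other columns are gene coordinates, in bases, per the file headers.

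A low-count filter (filterByExpr with the genotypes, at least 10 counts and 15 in total) was applied, and library sizes were scaled by TMM. Genotypes were compared in R 4.3.3 by the quasi-likelihood test of edgeR 4.0.16, with robust dispersions, over all 10832 kept genes, labelled Mll5+/- minus labelled WT, two-sided, adjusted by Benjamini-Hochberg and called under 0.05. SEs and 95% intervals come from the coefficient and its F statistic. The fit was run on simulated data with known changes. The pass condition was set at dispersions far below those of these data, so it checks that the fit runs correctly and not its power here. P-values measure the spread between these libraries, each taken as 1 mouse. Alternatives were limma-voom (limma 3.58.1, with sample weights), DESeq2 1.42.0, other scalings and filters, leaving out each library, and other forms of the balance.

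The 8 genes and the 6 pathway lists were chosen with earlier results of these data known. Named from each list were the up to 3 genes of smallest p under 0.05, or the 1 of smallest p; for Fcer1g and Sirpa the 2 most similar genes; and Kmt2e, Tmem119, P2ry12 and C1qa as checks. Others are named for their role or after their values were seen. The reads were amplified and carry no molecular identifiers, so they are not independent molecules, and the limit of 3 counts covers counting error alone.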

Additional observations from a re-analysis of the deposited data

How the results depend on the processing

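Of the 8 genes, 0 were under an unadjusted p of 0.05 in edgeR, DESeq2, limma-voom, the 2 other scalings, the 2 other filters and each of the 6 fits without 1 library. Genes passing the adjustment numbered 0 in edgeR and 29 with DESeq2, and 0 to 2 over the fits without 1 library. Of 196 values of 33 named genes under the settings that keep all libraries, 192 kept their direction and side of the adjusted threshold, 3 changed sign and P2ry12 passed with DESeq2 (-1.71). The unadjusted p of P2ry12 and Csk rose above 0.05 in limma-voom (0.176 and 0.0591). The changes of sign were in small values: Fcgr1 with total counts (0.0033, from -0.02), Fcer1g without the low-count filter (-0.0060) and Secisbp2l with total counts (0.012). Leaving out 1 library, log2 fold changes ran from -0.36 to 0.19 for Fcgr1, -0.14 to 0.15 for Fcer1g, -0.075 to 0.20 for Fcgr2b, -1.60 to 0.32 for Sirpa, -0.11 to 4.21 for Cd300lf and -0.16 to 0.17 for Cd47. They ran from -0.36 to 0.18 for Kmt2e, -0.14 to 0.27 for C1qa, -0.16 to 0.19 for Secisbp2l, -0.13 to 0.14 for Ankmy2, -1.28 to 0.19 for Ankle2, -0.65 to 0.32 for Nub1, -0.28 to 0.70 for Fcgr4, -0.24 to 0.52 for Cbl and -0.15 to 0.67 for Lair1. The balance differed by -0.11, by -0.32 to 0.12 without 1 library, by 0.17 without Cd300a and Cd300lf, and by -0.31 without Sirpa (chosen after seeing the data). In the lists, genes under the limit numbered 0 to 1 for activating signalling, 0 to 2 for inhibition effectors, 0 to 1 for other Fc, CD300 and SIRP receptors, 1 to 2 for other inhibitory receptors and 1 to 2 for the phagocytic cup without 1 library, and 2 for other inhibitory receptors with limma-voom or with total counts. The causes were not tested. No paired analysis was possible because the labels give no replicate numbers shared between genotypes.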

Other observations

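Some receptors and kinases of the same pathway were low in 1 library labelled WT, and are named after their values were seen. Lyn, a Src-family kinase that phosphorylates both activation and inhibition motifs, had 2119, 2527 and 336 CPM in WT replicates 1, 2 and 3, and 2605, 3104 and 2615 CPM in Mll5+/- replicates 1, 2 and 3. Lair1, an inhibitory collagen receptor, had 1489, 1055 and 376 CPM in WT replicates 1, 2 and 3, and 1152, 1073 and 1214 CPM in Mll5+/- replicates 1, 2 and 3. Cbl, a ubiquitin ligase that acts on activated receptors, had 303, 364 and 85.5 CPM and 266, 299 and 281 CPM. With all libraries, the edgeR log2 fold change was 0.74 for Lyn, 0.24 for Lair1 and 0.17 for Cbl. Without WT replicate 3 it was 0.25, -0.15 and -0.24. All 3 values of Lyn in libraries labelled Mll5+/- lay above all 3 in those labelled WT (SE 0.716, edgeR unadjusted p = 0.347). Levels were without overlap in 9.32% of all tested genes. WT replicate 3 held the lowest value of each of these 3 genes. It held the highest total of counts of the 6 libraries. Fcgr3 and Fcgr2b were both at their highest in that library (292 and 186 CPM). Why Lyn, Lair1 and Cbl were low there was not tested.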
